A study of Mus musculus with 3 samples.

Results

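The forkhead box genes encode a family of transcription factors that share a winged-helix DNA-binding domain, and their EZH2 intervals were examined in mouse bone marrow-derived macrophages by chromatin immunoprecipitation and sequencing (ChIP-seq). The members were the protein-coding genes of the mm10 RefSeq gene table with a symbol made of Fox, a letter from a to s and a number, which gave 44 of 21887 protein-coding genes. Per the labels, macrophages were derived from C57BL/6 marrow cells with M-CSF, a growth factor for macrophages. There was 1 EZH2 library from cells given lipopolysaccharide (LPS), a bacterial cell wall component, for 2 h, 1 from untreated cells (NT), and 1 library of input DNA, for which no intervals were used here. With 1 library per condition no difference between LPS and NT has a replicate check, and no test was made. How many animals each library came from is not stated in the labels.

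EZH2 is the catalytic subunit of polycomb repressive complex 2, which methylates histone H3 at lysine 27 and so helps to keep genes silent. In many cell types this complex sits in broad domains over genes for transcription factors of other lineages, often at CpG-rich promoters. Forkhead proteins fall on either side of that division. Many direct the formation of organs such as ovary, thyroid, lung or kidney and have no known task in macrophages, whereas the Foxo proteins, Foxp1, Foxk1, Foxk2 and Foxm1 are made in blood cells and act in survival, metabolism, differentiation or division. By textbook roles 28 members were classed as developmental, 13 as blood-expressed (most of these are also made in many other tissues) and 3 as other.

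An interval is an enriched stretch from the authors' list for a library, and its summit value is the authors' deposited value at the highest point. Summit values were whole numbers of an unstated unit. The LPS list had 4651 intervals with summit values from 7 to 100 (median 16), and the NT list had 9643 with values from 11 to 253 (median 27). Read depth and scaling are unknown for each library. A lower value or a missing interval in LPS therefore cannot be told apart from a shallower library. The track of stimulated cells is named TLR and was assigned to the LPS sample, the only stimulated EZH2 sample, because LPS acts through Toll-like receptor 4. A gene was counted where an interval met, by at least 1 bp, a window reaching 2.5 kb to both sides of an annotated gene end. The files hold no expression values, so the cell type could not be checked by its transcripts. Of 8 macrophage marker genes 0 had an LPS interval and 2 an NT interval, and of 18 marker genes of T cells, B cells, fibroblasts and neutrophils 2 had one in each library. Over all protein-coding genes 16.2% had an LPS interval and 38.2% an NT interval, and these marker counts do not show the cell type.

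Promoter sequences from RefSeq (mm10) are shown for 6 members as examples, some with and some without the intervals described below. They are the 250 bases before the annotated start of transcription, written 5′ to 3′, with every CpG dinucleotide in capitals. Foxl2 and Foxd3 are developmental genes with broad intervals in both libraries, Foxo3 is a blood-expressed gene with an interval in NT alone, and Foxj2 (blood-expressed), Foxi1 (developmental) and Foxp3 (blood-expressed) had no interval. The stretches lie at chr9:98955357-98955606 (plus strand), chr4:99656049-99656298 (plus strand), chr10:42276696-42276945 (minus strand), chr6:122819934-122820183 (plus strand), chr11:34208090-34208339 (minus strand) and chrX:7579426-7579675 (plus strand), in this order.
Foxl2: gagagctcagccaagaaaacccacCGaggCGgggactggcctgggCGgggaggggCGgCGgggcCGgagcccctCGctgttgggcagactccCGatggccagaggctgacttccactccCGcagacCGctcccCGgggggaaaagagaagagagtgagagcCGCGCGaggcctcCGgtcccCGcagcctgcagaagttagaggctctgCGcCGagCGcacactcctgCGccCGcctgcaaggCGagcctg
Foxd3: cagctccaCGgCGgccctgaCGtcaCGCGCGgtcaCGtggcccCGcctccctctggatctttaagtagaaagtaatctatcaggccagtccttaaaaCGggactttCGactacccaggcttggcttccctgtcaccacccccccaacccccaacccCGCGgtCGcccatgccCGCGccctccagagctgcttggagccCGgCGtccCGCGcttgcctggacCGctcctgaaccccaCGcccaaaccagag
Foxo3: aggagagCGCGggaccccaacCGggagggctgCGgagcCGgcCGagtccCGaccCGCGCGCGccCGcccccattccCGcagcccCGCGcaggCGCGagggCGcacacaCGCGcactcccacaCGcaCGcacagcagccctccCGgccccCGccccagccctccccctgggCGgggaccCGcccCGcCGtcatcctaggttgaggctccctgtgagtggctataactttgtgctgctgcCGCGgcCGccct
Foxj2: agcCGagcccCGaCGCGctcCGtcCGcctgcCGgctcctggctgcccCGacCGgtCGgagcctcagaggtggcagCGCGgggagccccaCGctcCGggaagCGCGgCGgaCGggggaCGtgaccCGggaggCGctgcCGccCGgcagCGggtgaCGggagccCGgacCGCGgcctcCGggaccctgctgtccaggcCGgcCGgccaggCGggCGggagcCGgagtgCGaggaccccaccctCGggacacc
Foxi1: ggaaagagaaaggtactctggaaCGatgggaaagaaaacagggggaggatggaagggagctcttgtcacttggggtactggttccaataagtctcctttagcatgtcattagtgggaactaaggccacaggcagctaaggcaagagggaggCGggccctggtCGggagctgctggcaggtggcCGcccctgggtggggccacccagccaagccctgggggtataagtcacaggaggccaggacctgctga
Foxp3: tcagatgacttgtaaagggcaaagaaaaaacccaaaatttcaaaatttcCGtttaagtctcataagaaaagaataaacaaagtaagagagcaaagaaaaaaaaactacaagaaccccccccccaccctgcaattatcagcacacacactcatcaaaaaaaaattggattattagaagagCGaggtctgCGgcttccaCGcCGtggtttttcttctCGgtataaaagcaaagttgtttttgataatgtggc

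In these stretches Foxl2 held 22 CpG, Foxd3 21, Foxo3 31, Foxj2 36, Foxi1 4 and Foxp3 6, beside a median of 10 over the promoters of all protein-coding genes in the table. A CpG-rich promoter was thus seen with broad intervals, with an interval in NT alone and with none. Among promoters with fewer CpG than that median, Foxi1 and Foxp3 had no interval, while others lay under one. Foxb2 held 7 CpG and Foxe3 held 6, under intervals in both libraries. Foxi2 held 3, under an interval in NT alone. The forkhead core motif TGTTTAC, searched on both strands, was found in 1 of 33 forkhead promoters, that of Foxa1, and in 2.62% of all promoters of this length. The table held promoters for 28 of the 44 members (63.6%), so a comparison of CpG content between the classes is void at the 80% set for it, and none is given.

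Forkhead genes carried intervals more often than protein-coding genes in general, and in each class those with an LPS interval were a subset of those with an NT interval. Of the 44 members 27 had an LPS interval, where 16.2% of all protein-coding genes did, and 35 had an NT interval, where 38.2% did. All 27 LPS genes were among the 35 NT genes, so that 27 had intervals in both libraries (15.6% of all genes), 8 in NT alone (22.6%), 0 in LPS alone (0.535%) and 9 in neither (61.3%). These members rest on 47 LPS intervals and 55 NT intervals, which make up 52 merged regions, and no region lay at more than 1 member. At the 27 genes with both, the highest LPS summit value was below the highest NT value in 27 of 27, as it was at 99.6% of 3419 such genes over the whole table.

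The LPS intervals divided the members by role. Of 28 developmental members 23 had an LPS interval (82.1%, 95% Wilson interval 64.4 to 92.1%), against 3 of 13 blood-expressed members (23.1%, 8.18 to 50.3%). In NT the classes were nearer to each other, with 25 of 28 developmental members (89.3%, 72.8 to 96.3%) and 9 of 13 blood-expressed members (69.2%, 42.4 to 87.3%). Intervals in NT alone lay at 2 developmental members (7.14%) and at 6 blood-expressed members (46.2%). Over all protein-coding genes the shares were 16.2% in LPS, 38.2% in NT and 22.6% in NT alone. The NT shares of the classes depended on the longer NT list. With NT limited to its highest intervals, as many as LPS had, an NT interval lay at 82.1% of developmental and 38.5% of blood-expressed members. The share over all protein-coding genes was then 20.5%. NT alone stood at 0% of developmental members, 23.1% of blood-expressed members and 8.04% of all protein-coding genes. Among members with an NT interval in the full list, an LPS interval was present at 23 of 25 developmental genes, 3 of 9 blood-expressed genes and 40.9% of all protein-coding genes. The Wilson intervals cover counting error over genes only, and no test of the difference between the classes was made.

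**Figure D1:**
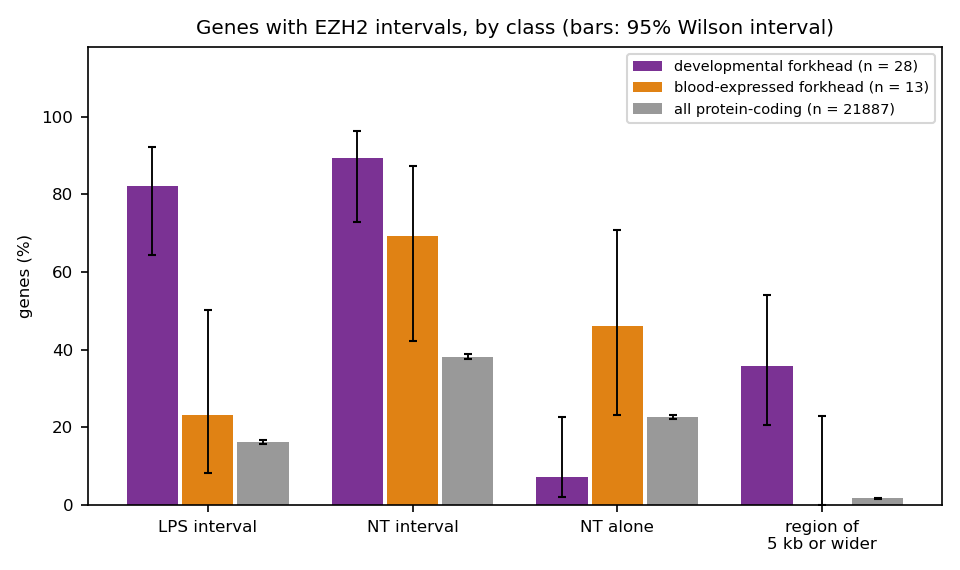
Share of genes (%) with an LPS interval, an NT interval, an NT interval alone, or a main merged region of 5 kb or wider, for 28 developmental forkhead genes, 13 blood-expressed forkhead genes and 21887 protein-coding genes; error bars are 95% Wilson intervals over genes. Developmental members stand at 82.1% for LPS and blood-expressed members at 23.1%, while the NT shares are 89.3% for developmental and 69.2% for blood-expressed members.

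The values also differed in height. Developmental members with an interval had a median highest summit value of 37 in LPS (range 10 to 93, 23 genes) and 66 in NT (20 to 202, 25 genes). For blood-expressed members the medians were 16 in LPS (9 to 23, 3 genes) and 28 in NT (16 to 54, 9 genes). Over all protein-coding genes with an interval they were 18 in LPS and 28 in NT. The blood-expressed NT median thus equalled that of all genes, and 19 of the 25 developmental members lay over 38, the upper quartile of all genes with an NT interval.

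**Figure D2:**
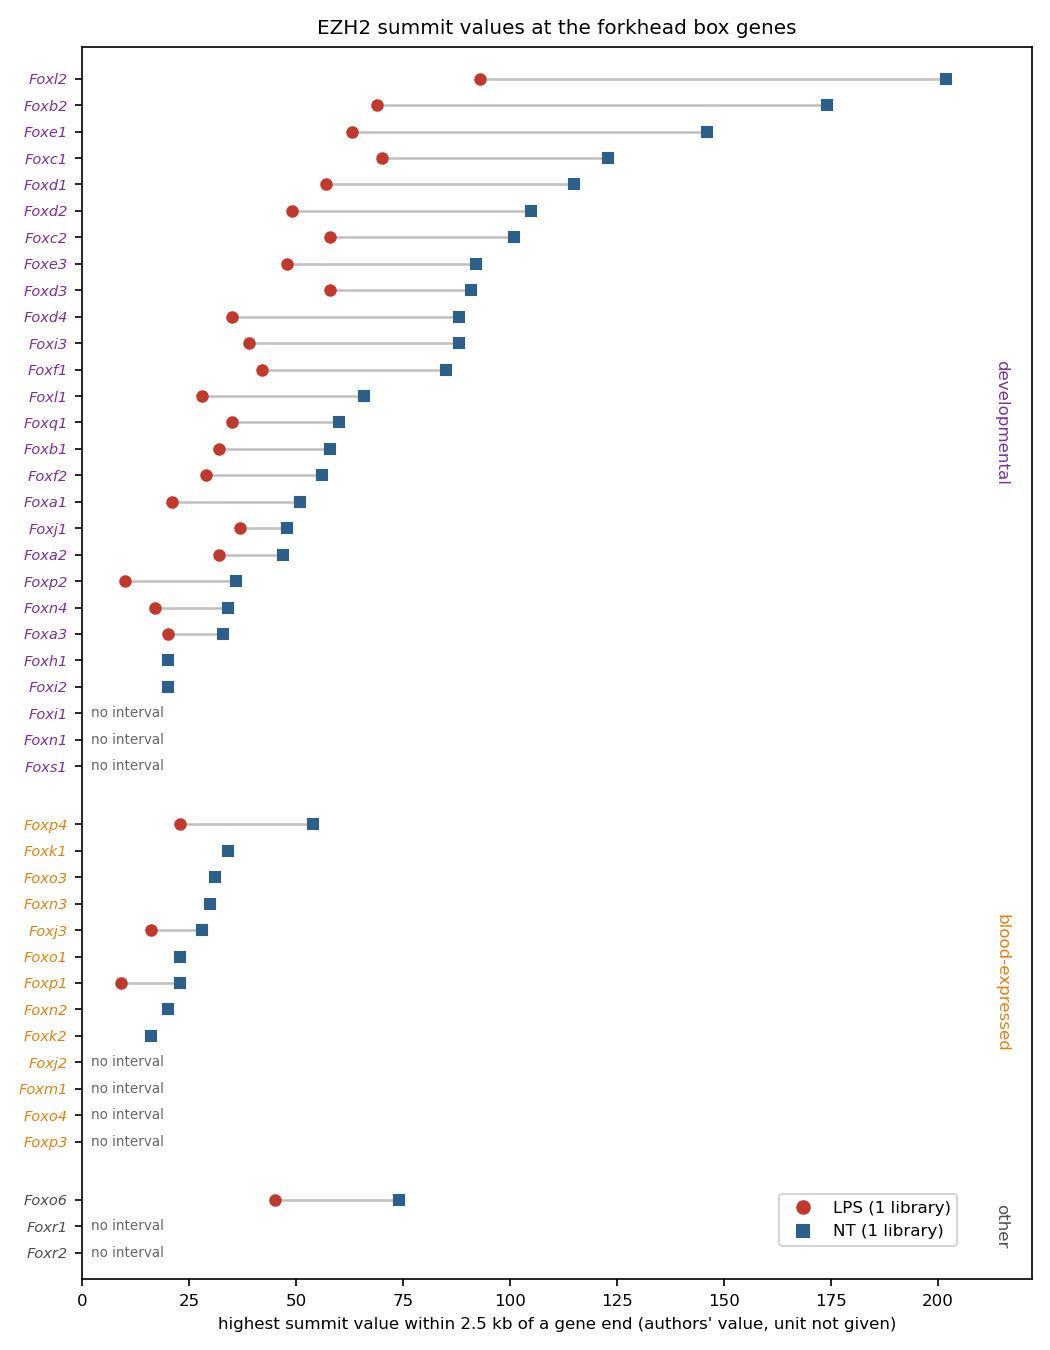
Highest summit value (authors' value, unit not given) within 2.5 kb of a gene end for each member shown, with LPS as circles and NT as squares, 1 library each, grouped by class and ordered by NT value. Developmental members reach 93 in LPS and 202 in NT at Foxl2, and blood-expressed members reach 23 in LPS and 54 in NT at Foxp4.

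Whether a member with an NT interval also had an LPS interval went with its NT value. Of the 21 forkhead genes with an NT value over 38, an LPS interval was present at 21, as at 85.6% of all genes over that value. At values over 28 and up to 38 it was present at 4 of 4 developmental and 0 of 3 blood-expressed members, and at 42% of all genes. At values over 22 and up to 28 it was present at 2 of 3 members, all of them blood-expressed, and at 26.2% of all genes. Up to 22 it was present at 0 of 4 members, 2 of each class, and at 14.2% of all genes. Blood-expressed members had both lower NT values and a lower LPS share. At values over 28 and up to 38 the classes differed all the same, in few genes. The part of the NT values in the LPS share was not tested.

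The highest NT values lay at Foxl2, Foxb2 and Foxe1. Foxl2, which maintains granulosa cell identity in the ovary, had 93 in LPS and 202 in NT, ranking 2 of 4651 LPS intervals and 5 of 9643 NT intervals. At chr9:98955607-98958126 the gene of 2.52 kb lay inside a merged region of 8.99 kb. Foxb2, a gene of the embryonic nervous system, had 69 in LPS and 174 in NT, with an LPS interval of 8.49 kb and an NT interval of 8.62 kb over a gene of 1.51 kb. Foxe1, needed for the thyroid, had 63 in LPS and 146 in NT. Its windows met 1 NT interval of 10.1 kb and 3 LPS intervals of 3.33, 1.52 and 2.37 kb. The merged region around them, 11.8 kb and the widest at any member, held 4 LPS and 2 NT intervals in all. Foxe3, which acts in the lens, had 48 in LPS and 92 in NT. The Foxe3 values lay above 95.6% of LPS and 97.7% of NT intervals, in a region of 3.43 kb. Height and width of a domain therefore did not go together at every member.

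Genes of mesoderm, neural crest and kidney stroma came next. Foxc1, a regulator of mesoderm and of the anterior eye, had 70 in LPS and 123 in NT, and its relative Foxc2, which acts in lymphatic vessels and mesenchyme, had 58 in LPS and 101 in NT. Foxd1, a marker of renal stroma progenitors, had 57 in LPS and 115 in NT. Its single NT interval of 6.30 kb was matched by 3 LPS intervals of 1.01, 1.94 and 3.62 kb. Foxd3, which acts in neural crest and in pluripotent cells, had 58 in LPS and 91 in NT and showed the opposite division, with 1 LPS interval of 10.9 kb and 3 NT intervals of 2.12, 1.05 and 5.26 kb in its windows. Foxd2 had 49 in LPS and 105 in NT, and Foxd4 had 35 in LPS and 88 in NT. Over the 52 merged regions at members, 8 held more than 1 LPS interval and 3 more than 1 NT interval. Over all 9785 merged regions these counts were 306 for LPS and 128 for NT. More regions were thus divided in the LPS list than in the NT list in general. The part of read depth in this was not tested.

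Among factors of the gut, lung and ectoderm, Foxf1, needed for lung and gut mesenchyme, had 42 in LPS and 85 in NT, and Foxf2 had 29 in LPS and 56 in NT. Foxl1, a gene of the gut mesenchyme, had 28 in LPS and 66 in NT. Foxi3, which acts in ectodermal placodes and hair, had 39 in LPS and 88 in NT, and Foxq1, known for its role in hair, had 35 in LPS and 60 in NT. The Foxa genes encode pioneer factors of endoderm and liver that open closed chromatin, and their values were lower. Foxa1 had 21 in LPS and 51 in NT, Foxa2 had 32 in LPS and 47 in NT, and Foxa3 had 20 in LPS and 33 in NT. At Foxa1 each library listed 4 intervals within the windows, so its low summits came with a long covered stretch of 6.73 kb in LPS and 7.65 kb in NT.

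The other developmental members with intervals in both libraries had NT values below the class median of 66. Foxb1, a gene of the developing hypothalamus, had 32 in LPS and 58 in NT, and Foxn4, which acts in retina and spinal cord, had 17 in LPS and 34 in NT. Foxp2, a gene of brain circuits of vocal behaviour, had 10 in LPS and 36 in NT, the lowest LPS value and the lowest ratio of LPS to NT value in the class (0.278). Foxj1, the regulator of motile cilia, had 37 in LPS and 48 in NT, the highest ratio (0.771). The median ratio over the 27 members with both was 0.50, beside 0.491 over all genes with both. These ratios are not scaled to depth and have no replicate check.

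The order of the members was much alike in the libraries. Across the 27 members with both, Spearman's rho between highest LPS and highest NT value was 0.94, and Pearson's r of the log2 values was 0.94. Over 3419 protein-coding genes with both, rho was 0.81 and r was 0.85. These points share the same pair of libraries, so the correlations describe the lists only. The highest LPS and NT summits of a member lay a median of 160 bp apart (range 0 to 1840 bp).

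The 5 developmental members without an LPS interval had an NT interval alone or none. Foxh1, which partners Smad proteins in Nodal signalling of the early embryo, and Foxi2 each had an NT interval with a value of 20. The NT summit at Foxh1 was 17 bp from an end of Ppp1r16a and 46 bp from an end of Foxh1, so that it cannot be assigned to either gene. Foxi1, a gene of the inner ear and kidney intercalated cells, Foxn1, which is needed for the thymic epithelium, and Foxs1 had no interval in either library. The nearest intervals to an end of Foxi1 were 690.2 kb away in LPS and 690.3 kb in NT, and those to Foxn1 were 109.9 kb away in LPS and 95.9 kb in NT. For Foxs1 they were 8.79 kb away in LPS and 8.24 kb in NT. None of the 9 members without an interval had one within 5 kb of an end.

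Members of the blood-expressed class that act downstream of phosphoinositide 3-kinase and AKT had NT intervals alone or none. Foxo3, a regulator of survival and stress resistance, had no LPS interval and an NT value of 31. Its NT interval of 4.18 kb, at chr10:42274365-42278548, was the widest at any blood-expressed member. The summit lay 456 bp from an end of the long non-coding RNA gene Gm38485 and 1430 bp from an end of Foxo3. The interval therefore cannot be assigned to either gene. Foxo1, a regulator of metabolism and lymphocyte homing, had no LPS interval and NT values of 23 and 21 in a pair of neighbouring intervals, the first over its start and the second just inside the gene. Foxo4, which is on the X chromosome, had no interval in either library, and the nearest was 588.3 kb away in LPS and 168.5 kb in NT. LPS intervals were listed at 0 of the 3 Foxo genes of the class. As 16.2% of all protein-coding genes had an LPS interval, this count does not set them apart.

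The Foxp genes differed among themselves. Foxp4 had the highest values of the class, 23 in LPS and 54 in NT, with summits 2343 bp (LPS) and 2231 bp (NT) downstream of its start. Foxp1, a regulator of B cell development and of monocyte differentiation, had 9 in LPS and 23 in NT, and its LPS value lay above only 1.2% of LPS intervals. Of its 3 annotated starts of transcription in the promoter table, the intervals lay near the most upstream one, with summits at -853 bp from it in LPS and -752 bp in NT (negative is upstream), and 0 intervals lay within 2.5 kb of the other two. Foxp3, the lineage factor of regulatory T cells, had no interval in either library. The nearest lay 326.6 kb away in LPS and 75.4 kb in NT.

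Of the remaining blood-expressed members, Foxj3 had 16 in LPS and 28 in NT at intervals of 0.757 kb (LPS) and 0.881 kb (NT) over its start, whereas Foxj2 and Foxm1, a driver of the cell division programme, had none. The nearest to Foxj2 lay 8.44 kb away in LPS and 8.35 kb in NT, and the nearest to Foxm1 61.8 kb away in LPS and 61.1 kb in NT. Foxk1 and Foxk2, repressors of autophagy genes, had no LPS interval, and their NT values were 34 at Foxk1 and 16 at Foxk2. The Foxk1 interval began 1366 bp beyond a gene end, and its summit was 901 bp from an end of Ap5z1 and 2093 bp from Foxk1. Foxn2 had 20 and Foxn3 30 in NT, each with no LPS interval. The Foxn3 summit lay 32 bp from an end of the long non-coding RNA gene Gm26839 and 142 bp from Foxn3. In NT, 5 of the 9 values of the class lay at or below the median of 28 over all genes. The median merged region of the class was 1.97 kb wide. This was narrower than the 4.27 kb of developmental members and wider than the 1.33 kb over all genes with an interval.

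In the class named other, Foxo6 stood apart from its Foxo relatives. This gene, known from the brain, had 45 in LPS and 74 in NT at one end and lower intervals at the other, 4 LPS and 3 NT intervals in all. Foxr1 and Foxr2 had none in either library.

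Domains were wider at developmental members. Their main merged region, the one with the highest NT summit, had a median width of 4.27 kb (range 1.05 to 11.8 kb, 25 genes), against 1.97 kb (0.749 to 4.18 kb, 9 genes) at blood-expressed members and 1.33 kb over all genes with an interval. It was 5 kb or wider at 10 of 28 developmental members, 0 of 13 blood-expressed members and 1.71% of all protein-coding genes. The developmental genes were themselves short, with a median length of 3.50 kb, against 57.5 kb for blood-expressed members. In short genes the windows around the ends overlap, so that fewer bases were searched there than at long genes.

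**Figure D3:**
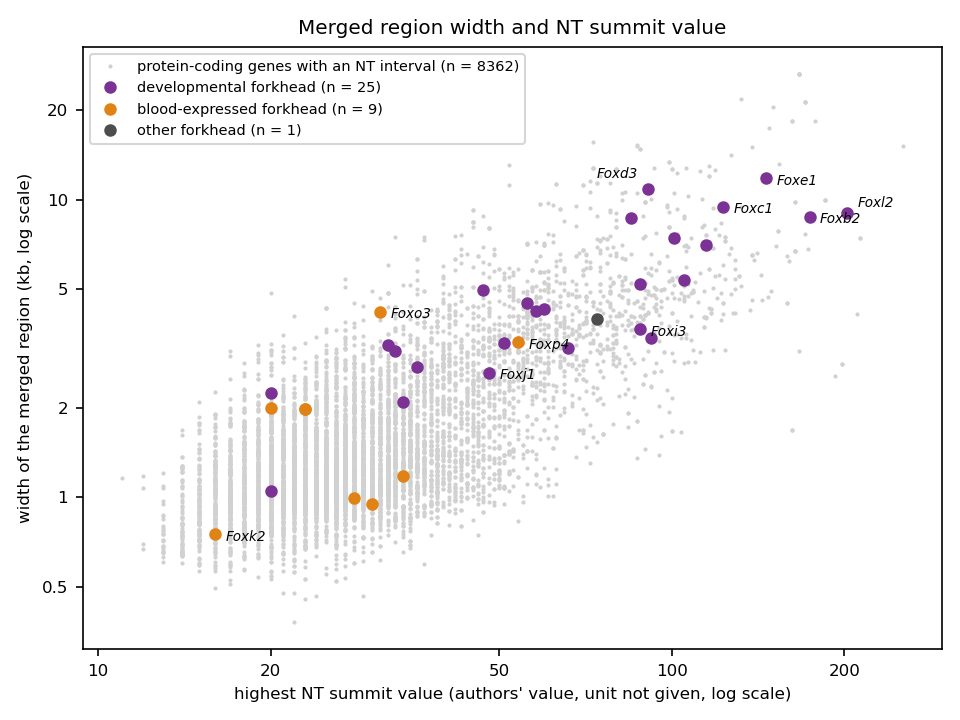
Width of the merged region (kb, log scale) against the highest NT summit value (authors' value, log scale) for 8362 protein-coding genes with an NT interval (grey) and for the 35 forkhead genes among them, coloured by class. Developmental members spread up to 11.8 kb and a value of 202, and blood-expressed members stay within 4.18 kb and a value of 54; the points of Foxo1 and Foxp1 coincide.

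Covered length was nearly as large in LPS as in NT at the members with both. The windows of these 27 genes were covered over a median of 4.59 kb in LPS and 5.08 kb in NT. The median of the gene-wise share was 91.8% (range 29.3 to 116%), beside 82.8% over 3419 protein-coding genes with both. For the 3 blood-expressed members it was 75%. LPS covered more bases than NT at 10 of the 27 members, all of them developmental, and at 17.5% of 3419 genes over the whole table. Among these were Foxb2 with 6.51 kb in LPS and 6.48 kb in NT, Foxd3 with 7.21 kb in LPS and 6.82 kb in NT, and Foxq1 with 4.17 kb in LPS and 3.59 kb in NT. These genes were picked by this comparison, so they carry no result beyond it. Covered length also stops at the window limits. At Foxb2 the whole LPS interval of 8.49 kb was shorter than the NT interval of 8.62 kb.

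Where the start of transcription is given, the intervals of developmental members lay over it and reached into the gene. Of the 17 developmental members in the promoter table, an interval covered an annotated start at 14 in LPS and 15 in NT, against 1 in LPS and 4 in NT of 9 blood-expressed members, and 11.9% in LPS and 32.8% in NT of 17492 protein-coding genes. Within 2.5 kb of a start, 14 developmental members had an LPS and 15 an NT interval, against 3 blood-expressed members in LPS and 6 in NT. Over the starts with an interval, the highest summit lay downstream at 15 of 16 developmental starts in LPS and 13 of 17 in NT. The median position over these starts was 709 bp downstream in LPS and 670 bp in NT. Foxa2 entered with several starts that share its summit, so the starts outnumber the genes. At blood-expressed starts the highest summit lay downstream at 1 of 3 in LPS and 2 of 6 in NT.

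**Figure D4:**
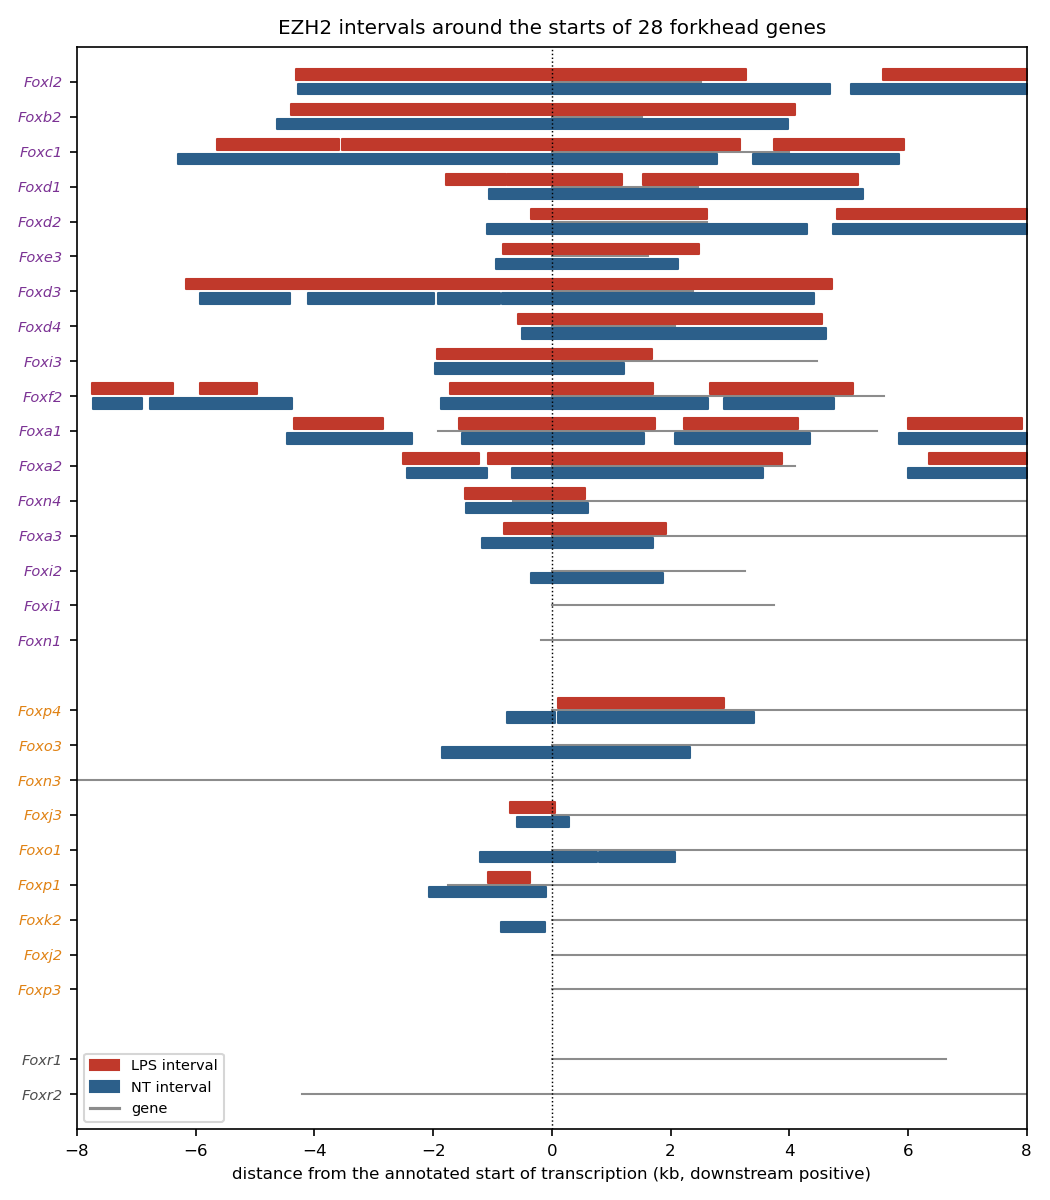
LPS intervals (upper bar) and NT intervals (lower bar) around the most upstream annotated start of 28 forkhead genes (distance in kb, downstream positive), with the gene as a grey line; names are coloured by class, from developmental at the top to other at the bottom. Developmental domains run over the start and often past the end of the short gene. At Foxo3, Foxo1 and Foxk2 (blood-expressed) and at Foxi2 (developmental) the lower bar stands alone. The Foxn3 gene begins at -113.6 kb from the start shown, so its NT interval is out of view.

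A total of 8 developmental members lay within 200 kb of another member, in 3 groups, and all 8 had intervals in both libraries. On chromosome 8, Foxf1, Foxc2 and Foxl1 lie within 46.3 kb, and 5 LPS and 5 NT intervals met their windows, each at 1 gene. The gap of 28 kb between Foxf1 and Foxc2 held 1 LPS interval outside the windows, with a value of 12, and the gap between Foxc2 and Foxl1 held 1 in NT, with 15. On chromosome 13, Foxq1, Foxf2 and Foxc1 lie within 252.5 kb, where the gaps held 4 LPS intervals with values of 10 to 28 and 3 NT intervals with values of 16 to 25. On chromosome 4, Foxd2 and Foxe3 are 15.5 kb apart with 3 intervals in each library and 0 between their windows. No interval in these groups joined neighbouring members. The members were 8.79 to 175.2 kb apart, and the widest region at any member was 11.8 kb, so this separation says little about the groups. The gap intervals of 12 and 28 in LPS belonged to merged regions of Foxf1 and Foxc1.

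**Figure D5:**
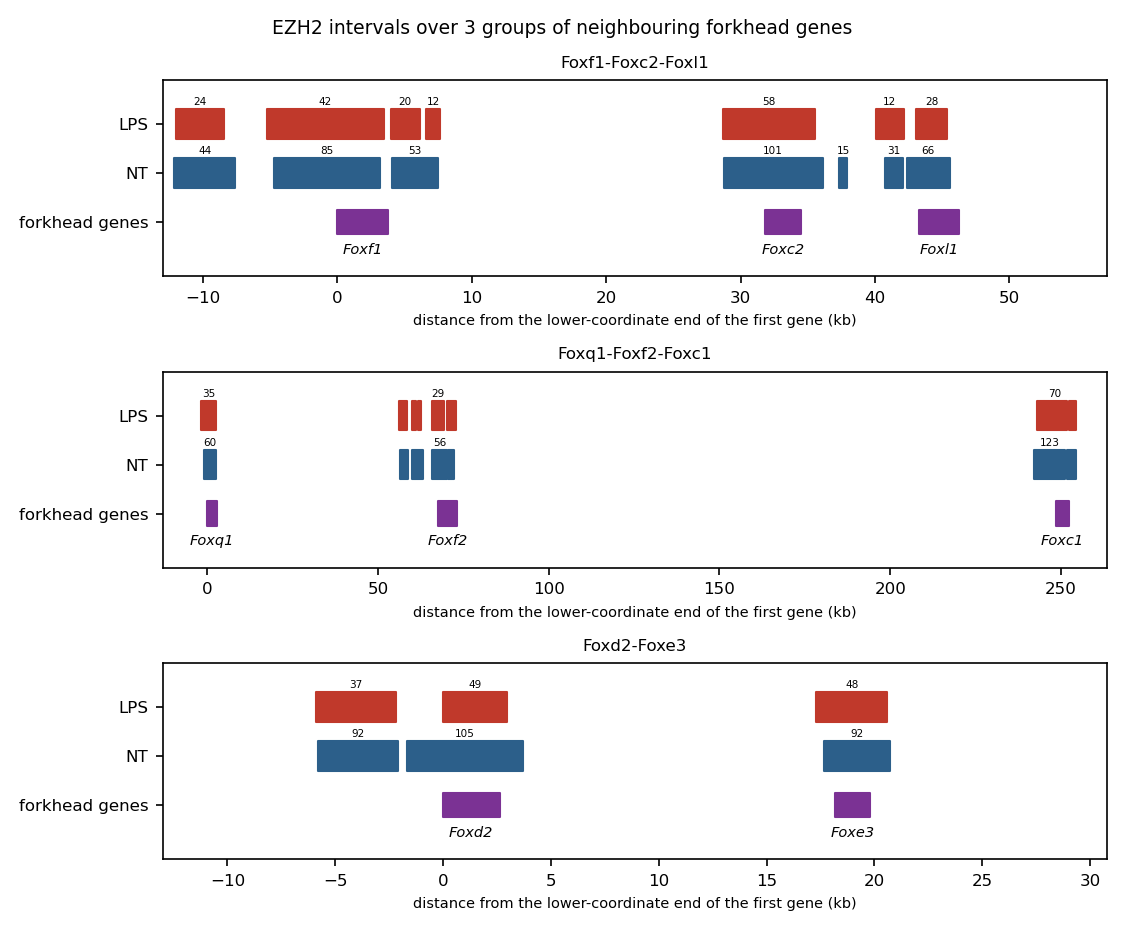
LPS intervals (upper row), NT intervals (middle row) and forkhead genes (lower row) over 3 groups of neighbouring members, by distance from the lower-coordinate end of the first gene (kb). Numbers are summit values, given in the middle panel for the highest interval of each gene only; each gene has its own intervals in both rows.

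The pathway that controls the Foxo proteins was examined as a list of 28 genes. Of 12 upstream regulators, kinases, phosphatases and modifiers, 1 had an LPS interval and 8 an NT interval. Of 16 known Foxo targets, 7 had an LPS interval and 13 an NT interval. Intervals in both libraries lay at 7 of the 28 genes, in NT alone at 14, in LPS alone at 1 (Sesn3) and in neither at 6. Among the genes with NT alone, Pik3r1, a regulatory subunit of phosphoinositide 3-kinase, had an NT value of 51 and Gadd45a, a stress response gene, had 43. The 4 genes with the highest NT values among the 7 with both were Klf2, Sod2, Irs2 and Ccng2. Klf2, a factor of lymphocyte quiescence, had 12 in LPS and 52 in NT, Sod2, a mitochondrial superoxide dismutase, had 21 in LPS and 47 in NT, Irs2, an insulin receptor substrate, had 19 in LPS and 47 in NT, and Ccng2, a cyclin of cell cycle arrest, had 11 in LPS and 33 in NT. Over the 28 genes, 8 had an LPS interval (28.6%) and 21 an NT interval (75%), beside 16.2% (LPS) and 38.2% (NT) of all protein-coding genes, and the blood-expressed forkhead genes stood at 23.1% in LPS and 69.2% in NT. Where a listed gene had an NT interval, the median NT value was 27, near the 28 of all genes and of blood-expressed members, and 0 of the 28 lay in a region of 5 kb or wider.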

How the data were processed

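ChIP-seq of EZH2 was deposited for 1 LPS and 1 NT library, with an input library. BWA, SICER and mm10 appear in the submitters' processing notes without versions, settings or roles; depth, duplicate removal and use of the input are not given in the sources used here. Per the file headers, the track file holds summits and intervals of each EZH2 library and their merged regions. The summit value is a deposited score of the authors, in no stated unit, and other deposited columns are the authors' BED positions, given here 1-based. The merged regions equal the union of both lists. Intervals are listed per library.

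Gene ends came from a RefSeq gene table (GRCm38.p6, which is mm10) and starts of transcription and promoters from a RefSeq promoter table of the same build, matched by gene ID for 28 of 44 members. The values of 1 member enter the counts and medians and are not reported here by name. Overlaps were computed with Python 3.11.15 and pandas 2.3.3, at a minimum of 1 bp, and the overlap functions were tested on simulated data. Wilson intervals (95%, SciPy 1.17.1) cover counting error only. Members, classes, lists and the rule for named genes (blood-expressed members, members with an interval in 1 library, developmental members with none, the 10 developmental members with the highest NT value, members within 200 kb of another, genes sharing an interval with a member, and up to 4 pathway genes with an interval in both libraries, by NT value) were chosen with earlier results of these data known; quartiles of NT value, the LPS to NT ratio, covered length and the naming of other members and pathway genes were added after values were seen. Alternatives tried were windows of 1 kb and of 5 kb, the gene body, stronger intervals, an NT list cut to the LPS length, summits in place of intervals, stricter overlap, region merging and other class memberships.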

Additional observations from a re-analysis of the deposited data

How the results depend on the processing

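No paired analysis was possible because LPS and NT had 1 library each. Among 111 values computed again, 102 were near the main one (counts and medians within 1.5 times, shares inside their Wilson interval) and 9 did not; fewer intervals enter the settings concerned by construction. With NT intervals limited to as many as LPS had, 3 members had an interval in NT alone (Foxk1, Foxn3 and Foxo3) and 1, Foxp1, in LPS alone. The NT share of blood-expressed members was then 38.5% and their share in NT alone 23.1%, beside 20.5% and 8.04% of all protein-coding genes. The share of developmental members in NT alone was 0%, and an LPS interval stood at 100% of those with an NT interval. Among blood-expressed members with an NT interval in this setting, an LPS interval stood at 2 of 5. Among all protein-coding genes with one it stood at 2726 of 4486. With only intervals whose value reached their list's median, 4 members had NT alone (Foxk1, Foxn3, Foxo3 and Foxp2). Blood-expressed members then stood at 38.5% in NT and 23.1% in NT alone, beside 21.3% and 12.1% of all protein-coding genes. The LPS shares stayed between 78.6% and 82.1% for developmental and between 15.4% and 28.6% for blood-expressed members in every setting that gave them. Windows at the start of transcription were not run over all members, since starts were given for 28 of 44. With 1 library per condition and unknown depth, these values show dependence on settings and not on samples.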

Other observations

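Long non-coding RNA genes lie next to several members and share their intervals. Of the 35 forkhead genes with an NT interval, 11 (31.4%) had an NT interval that also lay within 2.5 kb of an end of an annotated long non-coding RNA gene, beside 18% of all 8362 protein-coding genes with an NT interval. The interval at Foxl2 (93 in LPS and 202 in NT) ran over an end of Foxl2os, that at Foxf1 (42 in LPS and 85 in NT) over an end of Fendrr, and that at Foxd2 (49 in LPS and 105 in NT) over an end of Foxd2os. A further interval below Foxd2 (37 in LPS and 92 in NT) lay over an end of Gm33655 and 2180 bp from Foxd2 in LPS and 2112 bp in NT. These intervals cannot be assigned to one gene of a pair. Genes named here were chosen after their values were seen, and no test was made.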
